A study of Mus musculus with 2 samples.

Results

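A set of 7 long RNA genes without a protein product, or with one in doubt, is described here in mouse pancreatic islets: Neat1, Malat1 and Miat, whose RNAs stay in the nucleus, Gas5, Snhg11 and Snhg12, whose introns hold small nucleolar RNAs (snoRNAs), and Rptoros, an RNA read from the strand opposite to the Raptor gene Rptor. They came from a list of 8 symbols, of which 7 were matched by Ensembl gene ID among 38924 genes in the files. Snhg1 was not matched by ID and is not analysed here. The members were chosen by name with their expected counts and fractions in these 2 libraries in view, so what follows describes them and tests nothing. All 7 had 100 or more counts over both libraries.

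The islets, the hormone-secreting cell clusters of the pancreas, came from C57BL/6J (B6) mice, the strain of the mouse reference genome, and from CAST/EiJ (CAST) mice, a wild-derived inbred strain. In each strain the animals were labelled as males of 10 weeks on standard chow, the labels name no genetic change or drug, and islets of 2 mice were pooled into 1 library from 250 islets. Islets were freed with collagenase, a Ficoll gradient and picking by hand, and kept in buffer with 16.7 mM glucose. With 1 pooled library per strain there is no replicate, so no p-value is given, and the 95% intervals cover counting error only. Differences are between these libraries, and strain, individual mice, pool and library preparation cannot be told apart.

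The libraries held 76600903 (B6) and 104324631 (CAST) expected counts. The 10 beta cell marker genes made up 19.7% of counts in B6 and 24.8% in CAST, so both pools were rich in islet cells. The labelled sex was contradicted in both: Xist, the RNA of the inactive X chromosome of females, had 96197 and 109595 counts, while the Y-linked Kdm5d, Uty and Eif2s3y had 0 in each and Ddx3y had 1 and 0. Markers of exocrine acinar cells were higher in CAST for 17 of 17 genes, 14 of them at least 2-fold, and summed to 0.740% of counts in B6 and 2.48% in CAST. The 6 alpha cell markers summed to 5.41% and 3.72%, with 5 of 6 lower in CAST. The 4 delta cell markers summed to 0.383% and 0.188%, all lower in CAST, and the 2 PP cell markers to 0.260% and 0.326%, both higher in CAST. The 10 stellate cell and fibroblast markers summed to 0.0220% and 0.0276%, with 9 of 10 higher in CAST. No marker on these lists was at 0 in both libraries. In such bulk RNA, fewer cells of a type and less RNA per cell cannot be told apart, and the part of cell makeup in the values below was not tested.

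Nuclear long RNAs work where they are made. The long form of Neat1 is the scaffold of paraspeckles, nuclear bodies that hold proteins such as NONO and SFPQ and some RNAs. Malat1 gathers in nuclear speckles, which store splicing factors, and Miat, also called Gomafu, forms spots of its own and carries repeats that resemble the branch point bound by the splicing factor SF1. snoRNA host genes are spliced like messenger RNAs. Their introns release snoRNAs that guide chemical modification of ribosomal and other RNAs, and the joined exons often leave the nucleus and are destroyed by nonsense-mediated decay when ribosomes engage them.

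Of the 7 genes 4 were at least 2-fold apart between the libraries. Neat1, Malat1 and Rptoros were higher in B6, and Miat was higher in CAST. The ratio is that of counts scaled by TMM, a factor that levels the bulk of genes, with 0.5 added, given as log2 of CAST over B6. Among all 14768 genes with 100 or more counts 13.2% were at least 2-fold apart, 5.99% higher in B6 and 7.18% in CAST. With a threshold of 1.5-fold these shares were 12.8% and 12.4%, and the same 4 members passed. Among the 673 long noncoding genes 36.8% were at least 2-fold apart, 30.6% higher in B6 and 6.24% in CAST, against 4.8% and 5.65% of 13530 protein-coding genes. The 3 members higher in B6 therefore belong to a class of which much lay that way: the median log2 ratio of long noncoding genes was -0.49, with 504 of 673 below 0, and that of coding genes was 0.02. The members were chosen with such values in view, and nothing is read from their count.

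**Figure D1:**
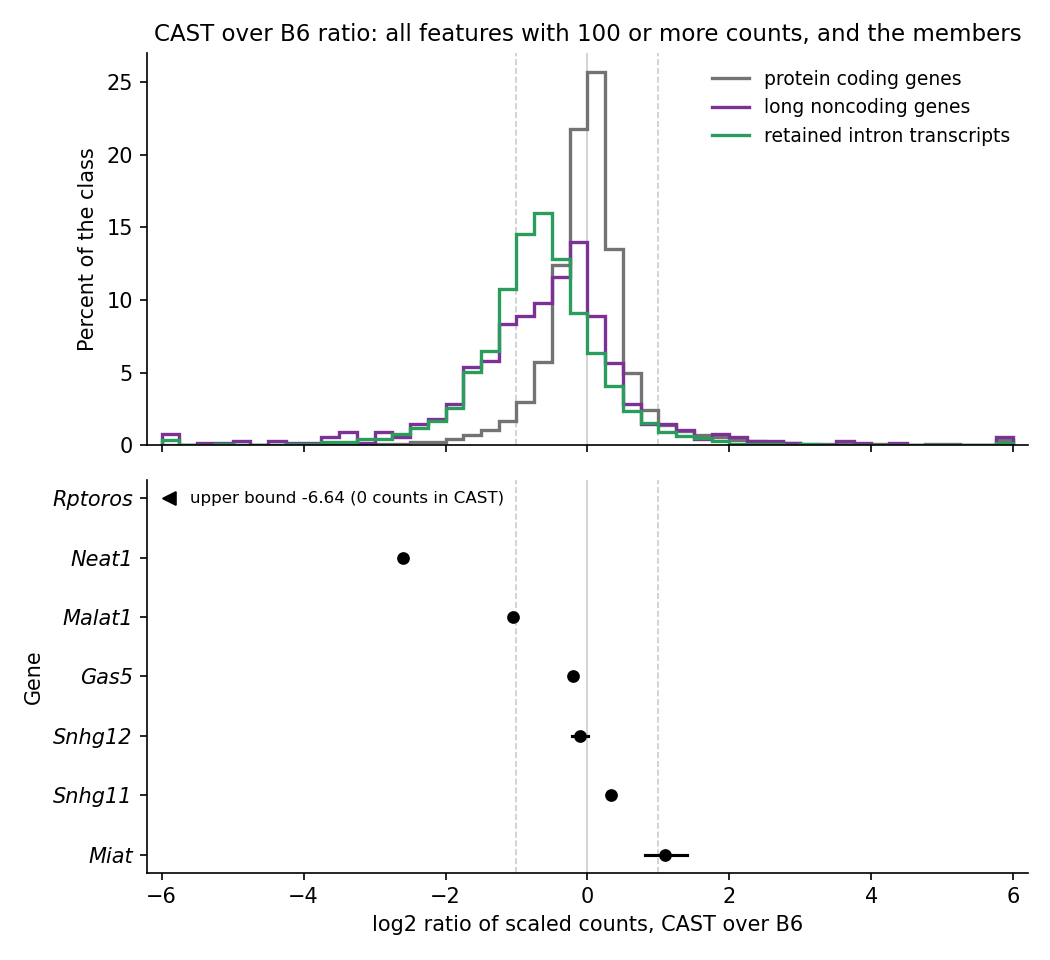
The upper plot gives the distribution of the log2 ratio, CAST over B6, in bins, as percent of each class with 100 or more counts (ratios past the axis are put in the end bins), and the lower plot gives the members with their 95% counting intervals, with dashed lines at 2-fold. Long noncoding genes and retained intron transcripts sit left of coding genes, Neat1 lies at -2.59, Malat1 at -1.05 and Miat at 1.10, and Rptoros is shown by an arrow because only a bound exists.

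By TPM (transcript level per length and per depth), Gas5 was the highest member in both libraries. The order in B6 was Gas5 at 181, Neat1 at 166, Malat1 at 138, Snhg12 at 33.4, Snhg11 at 13.6, Rptoros at 3.46 and Miat at 0.237. In CAST it was Gas5 at 134, Malat1 at 55.4, Snhg12 at 25.5, Neat1 at 22.2, Snhg11 at 12.9 and Miat at 0.403, with Rptoros listed at 0. Neat1 moved from the second to the fourth place. No neighbours in either order had overlapping counting intervals, but their spread between pools is unknown. Among 4189 annotated long noncoding genes Gas5, Neat1 and Malat1 ranked 4, 5 and 6 by TPM in B6 and 6, 18 and 9 in CAST.

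**Figure D2:**
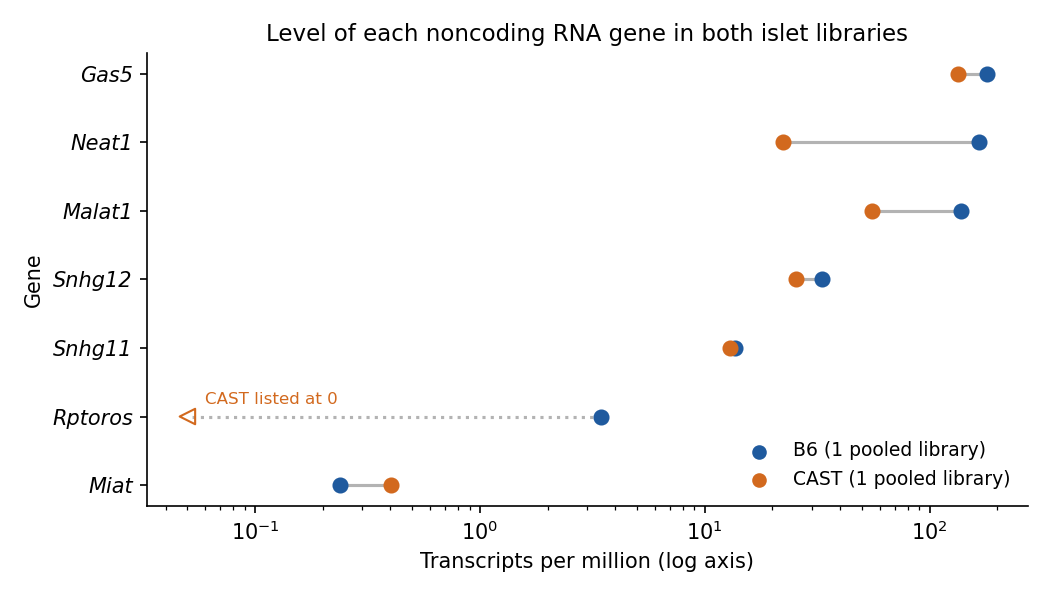
Each row is a gene, and the points give its TPM in the B6 and the CAST library on a log axis. The longest line between measured points is that of Neat1, 166 to 22.2, Snhg11 has points that nearly coincide (13.6 and 12.9), and the open arrow marks Rptoros, listed at 0 in CAST.

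Neat1 and Malat1 are neighbours on chromosome 19, both on the minus strand, with 22035 bases between them (GRCm38; Malat1 chr19:5795690-5802672, Neat1 chr19:5824708-5845478). Neat1 had 35340 counts in B6 against 7148 in CAST. It was 6.04-fold higher in B6, a log2 ratio of -2.59 (95% counting interval -2.63 to -2.56). Only 34 of 673 long noncoding genes lay at or below that ratio. There were 70 long noncoding genes with a TPM of 10 or more in B6. Of these 18 were at least 2-fold higher in B6 and 3 in CAST, and Neat1 had the lowest ratio. The cut on B6 alone leaves out genes abundant only in CAST, so it favours genes higher in B6. Malat1 had 61412 counts in B6 against 36361 in CAST. Its log2 ratio was -1.05 (-1.06 to -1.03), or 2.06-fold higher in B6, and 199 of the 673 genes, 29.6%, lay at or below it, so its ratio was a common one in its class.

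Within a library, where no scaling between libraries enters, Malat1 to Neat1 was 0.833 by TPM in B6 and 2.5 in CAST, a 3.00-fold shift. Against Gas5, Neat1 stood at 0.915 in B6 and 0.166 in CAST, and Malat1 at 0.763 and 0.414. Frmd8, the nearest coding gene on the Neat1 side of the pair, was close to even, with 630 and 730 counts (log2 -0.08, -0.23 to 0.08). Under total-count scaling and TPM the median of all genes shifts down by 0.16 to 0.34 in log2. Neat1 and Malat1 stay more than 2-fold higher in B6 there, but such a shift toward B6 is no check on that. A scaling of counts moves every gene by the same step, so distances from the median of all genes cannot change under it. Measured from that median by counts, Neat1 lay at -2.61 and Malat1 at -1.06. By TPM they lay at -2.58 and -1.04 with a pseudocount of 1, and at -2.58 and -0.997 with 0.1, where Malat1 fell just short of 2-fold.

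Neat1 exists as a short RNA with a poly(A) tail and a long one that runs on past that site. The 3′ ends of both are shown because the 2 forms differ there. The annotated short form, Neat1-202 (2 exons, 3004 bases), ends at chr19:5842307-5842366 with AATAAA, the poly(A) signal, here in capitals. The long form, Neat1-201 (1 exon, 20771 bases), ends at chr19:5824708-5824767 without these letters in its last 60 bases. The small RNA gene Gm27702 (chr19:5824652-5824707) starts at the next base. It is a tRNA-like RNA, and capitals mark a match to GGTTCNA, letters found in the T loop of tRNAs. Malat1 carries such a match in a stretch at chr19:5795915-5795990, 256 bases from the annotated end of Malat1-201. Of the 21 bases from the match on, 17 are identical between Malat1 and Gm27702; the other match to these letters in the last 300 bases of Malat1-201 shares 9. Both tRNA-like RNAs are known to be cut free by RNase P, which makes the 3′ end of the long RNA.
Neat1-202: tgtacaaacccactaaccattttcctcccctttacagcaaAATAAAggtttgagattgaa
Neat1-201: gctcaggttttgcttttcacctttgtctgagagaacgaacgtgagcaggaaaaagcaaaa
Gm27702: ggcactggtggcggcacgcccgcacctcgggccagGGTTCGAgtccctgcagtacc
Malat1-201: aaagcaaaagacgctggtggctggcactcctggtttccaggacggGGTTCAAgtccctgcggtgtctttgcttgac
These sequences are from GENCODE M21 transcripts (GRCm38), all on the minus strand. On the transcript strand 5.03% of 131058 transcripts hold GGTTCNA in their last 300 bases, so the letters alone are not rare. A match is a description and not a measured processing site.

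All 3 forms of Neat1 in the files were lower in CAST. The short Neat1-202 had 29351 counts in B6 against 6016 in CAST (log2 -2.58, -2.62 to -2.54). The long Neat1-201 had 5587 and 1014 (log2 -2.75, -2.85 to -2.65). The third form, Neat1-203 (4 exons), had 402 and 118 (log2 -2.05, -2.37 to -1.76). By TPM the short form stood 37.2 to 1 against the long form in B6 and 42.0 to 1 in CAST. The long form thus held 2.52% of Neat1 TPM in B6 and 2.20% in CAST. By counts, which are not corrected for length, the long form held 15.8% and 14.2%. How well the libraries caught each form was not tested. The first stretch of the long form has the sequence of the short one, and reads there were divided between them by the authors' RSEM run, whose error is not in the files.

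Malat1 came almost wholly from the single-exon Malat1-201, with 61387 counts in B6 against 36169 in CAST. It held 99.5% of Malat1 TPM in B6 and 94.0% in CAST. The remainder in CAST was a transcript without a name in GENCODE M21, at 0 counts in B6 against 190 in CAST, which held 5.90% of the gene's TPM there. The spliced forms Malat1-202, Malat1-203 and Malat1-204 had 6, 2 and 17 counts in B6 and 0, 0 and 2 in CAST.

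**Figure D3:**
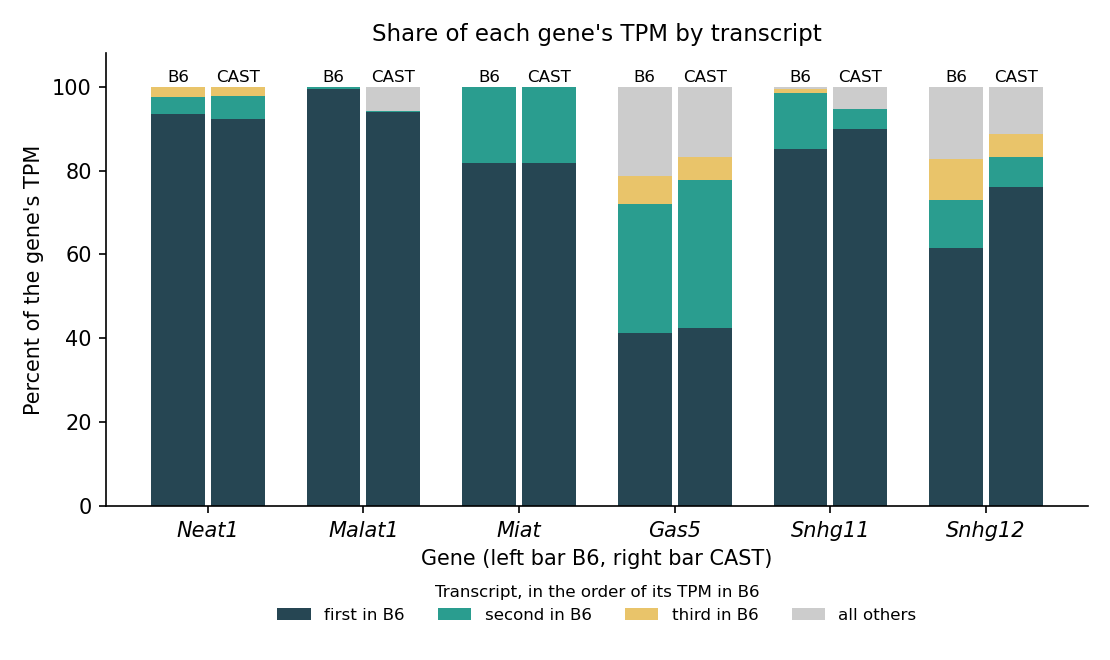
Stacked bars give the percent of each gene's TPM held by its transcripts, in the order of their TPM in B6, with B6 on the left and CAST on the right of each pair. Neat1, Malat1 and Miat keep 1 leading transcript in both libraries, Gas5 is divided among many, and the leading transcript of Snhg12 goes from 61.5% to 76.2%.

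Genes that serve the bodies of these RNAs did not share their size of difference. Of 28 paraspeckle proteins 14 had a ratio below 0 and 14 above, with a median of 0.00 against 0.02 over all genes. The highest were Rbm3, a cold-inducible RNA-binding protein, with 3855 and 11271 counts (log2 1.26), and Hnrnpa1, a splicing repressor (log2 0.39). The lowest was Hnrnph3, an RNA-binding protein of these bodies (log2 -0.40). Rbm3 was the only one of the 28 at least 2-fold apart. Of 25 nuclear speckle proteins 20 were below 0, with a median of -0.19, and none was 2-fold apart. Luc7l3, a splicing factor of the U1 snRNP kind, was lowest (log2 -0.80), before Srsf5, an SR splicing factor (log2 -0.57). Tra2b, a splicing activator (log2 0.27), and Mettl16, an RNA methyltransferase (log2 0.25), were highest.

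Miat was the lowest of the measured members in B6 and the only one at least 2-fold higher in CAST. It (chr5:112213228-112229395, minus strand) had 135 counts in B6 against 354 in CAST, or 0.237 and 0.403 TPM. The log2 ratio was 1.10 (0.81 to 1.40), or 2.14-fold, and 38 of 673 long noncoding genes lay at or above it. With a pseudocount of 1 on TPM, which exceeds its level, the log2 ratio was 0.18, with 0.1 it was 0.57, and by total counts 0.94. The 2-fold call thus rests on counts scaled to the bulk of genes. Measured from the median of all genes by counts, Miat lay at 1.08. No scaling of counts can change that distance, so it is no check on the 2-fold call for Miat. By TPM it lay at 0.44 with a pseudocount of 1 and 0.89 with 0.1. Of the forms with counts, Miat-201 had 109 and 287 counts (log2 1.10, 0.78 to 1.44), and Miat-205 had 25 and 67 (log2 1.12, 0.45 to 1.86). Both have 7 exons over nearly the same span, so RSEM divided largely shared reads between them. Their like ratios are therefore not separate readings. The other 4 annotated forms had 0 counts in each library. Miat is best known from neurons. The 9 nerve and Schwann cell markers summed to 0.0218% of counts in B6 and 0.0324% in CAST, with 7 of 9 higher in CAST and none at 0 in both; their part in the value of Miat was not tested.

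The repeats of Miat are shown because they set its sequence apart among the members. Miat-201 (8758 bases) holds ACTAAC 11 times on the transcript strand, where the median transcript of 5000 to 12000 bases holds 1. Only 3 of 6672 such transcripts, or 0.045%, hold 11 or more, and Miat-201 is among these 3. Miat-205 (9163 bases), which covers nearly the same span, also falls in that length range, so the 3 need not be separate genes. Malat1-201 holds none and Neat1-201, a longer RNA, holds 4. The 151-base stretch below (chr5:112217309-112217459, minus strand, 1 exon, GENCODE M21) has 4 of them, in capitals.
Miat-201: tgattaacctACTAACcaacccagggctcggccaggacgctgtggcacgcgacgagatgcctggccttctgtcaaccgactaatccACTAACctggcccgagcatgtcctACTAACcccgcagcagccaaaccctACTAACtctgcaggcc
Splicing proteins that are known or proposed partners of Miat lay near even. Of 9 genes 5 were below 0 and 4 above, with a median of -0.08 and none 2-fold apart. U2af1, a subunit of the factor that reads the 3′ splice site (log2 0.34), and Khdrbs1 (log2 0.28) were highest, and Celf2 (log2 -0.26) and Celf3 (log2 -0.25), CELF splicing regulators, were lowest.

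The snoRNA hosts differed less than the nuclear RNAs. Gas5 (chr1:161034422-161038539, plus strand) had 7452 counts in B6 against 7940 in CAST, a log2 ratio of -0.20 (-0.24 to -0.15). Snhg12 (chr4:132308623-132311024, plus strand) had 1266 and 1436 (log2 -0.11, -0.22 to 0.00). Snhg11 (chr2:158375638-158386145, plus strand), an RNA known from neurons that GENCODE M21 lists as protein coding, had 4503 and 6903 (log2 0.33, 0.27 to 0.38). None of the 3 was 2-fold apart. On the TPM scale with a pseudocount of 1, Snhg11 came out at -0.07 and turned sign, where the median of all genes was -0.26. Within a library Snhg12 to Gas5 was 0.184 by TPM in B6 and 0.191 in CAST, nearly the same, and Snhg11 to Gas5 was 0.0751 and 0.0964. Snhg11 to Miat was 57.3 in B6 and 32.0 in CAST.

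Gas5 was expressed as many forms, and those annotated as keeping introns were, in sum and in most cases, lower in CAST. Of 25 transcripts in the files 23 had counts. Forms of a gene share sequence, so their counts rest on how RSEM divided the reads, and the intervals per form leave out its error. The same holds for Snhg12 and Snhg11 below. The spliced Gas5-224 (12 exons) had 2042 counts in B6 against 2427 in CAST (log2 -0.04, -0.13 to 0.05). The spliced Gas5-210 (11 exons) had 1721 and 2271 (log2 0.11, 0.02 to 0.20). The 20 forms annotated as retained intron summed to 3628 and 3161 counts (log2 -0.49, -0.56 to -0.42), while the 5 others summed to 3823 and 4779 (log2 0.03, -0.03 to 0.09). By TPM the retained intron forms held 26.5% of Gas5 in B6 and 20.5% in CAST. The largest of them were Gas5-218, with 1356 and 1095 counts (log2 -0.60), and Gas5-222, with 1212 and 1107 (log2 -0.42). Of the 9 retained intron forms with 100 or more counts 8 were below 0. The exception, Gas5-211, had 103 and 153 counts and the highest log2 ratio of all Gas5 forms of that depth, 0.28 (-0.09 to 0.66). Gas5-205 was the one Gas5 form with 100 or more counts at least 2-fold apart, at 167 and 76 (log2 -1.42). Among all 28944 transcripts with 100 or more counts, 12.4% were at least 2-fold higher in B6.

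The same tilt ran through the libraries. Over 3510 retained intron transcripts of all genes the median log2 ratio was -0.67, with 2902 below 0 and 30.3% at least 2-fold higher in B6. Over 20886 protein-coding transcripts the median was 0.04, with 7.92% at least 2-fold higher in B6. All retained intron transcripts together took 1.85% of counts in B6 and 1.12% in CAST. In 2422 genes with 100 or more counts in each class, the retained intron forms lay a median 0.64 below the other forms of the same gene in log2, and below them in 2058 genes. In Gas5 the gap was 0.52, and 57.6% of the genes had a gap as large or larger, so Gas5 was ordinary in this respect. The part of this tilt in the values of the nuclear RNAs above was not tested.

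**Figure D4:**
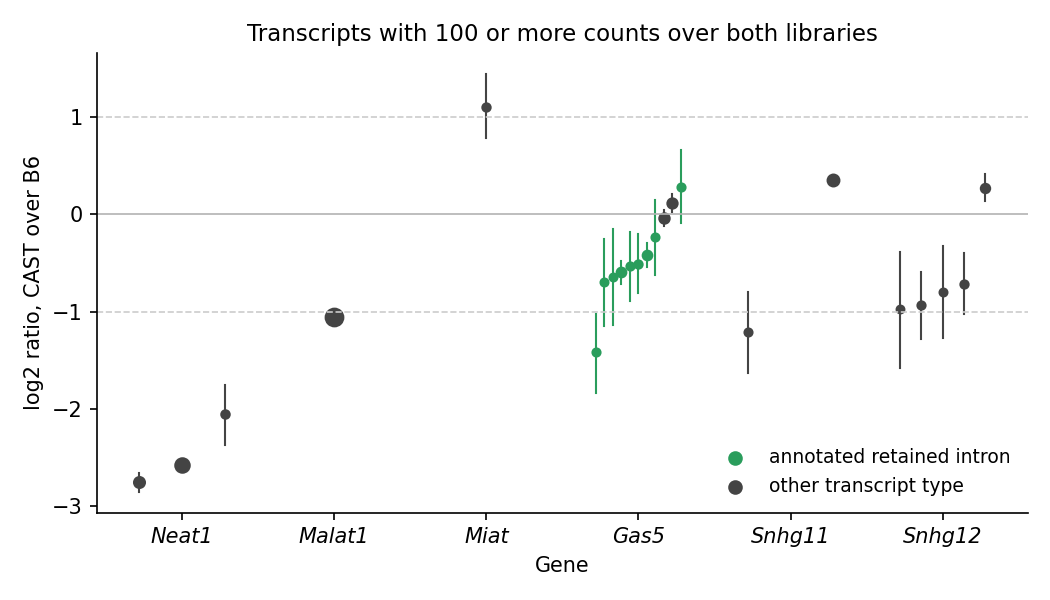
Each point is a transcript with 100 or more counts over both libraries and more than 3 in each, placed by its log2 ratio, CAST over B6, with its 95% counting interval; point size grows with counts. Retained intron forms of Gas5 (green) lie mostly below the spliced forms near 0, Snhg12 has 1 form above 0 and 4 below, and the 3 forms of Neat1 lie between -2.75 and -2.05.

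Snhg12 was also split by form, though none of its forms carries the retained intron label. Its main form Snhg12-206 (5 exons) had 699 counts in B6 against 1031 in CAST (log2 0.27, 0.13 to 0.41), and its share of the gene's TPM was 61.5% and 76.2%. The longer Snhg12-201 (3 exons, 1213 bases) had 200 and 149 (log2 -0.71, -1.03 to -0.40), and Snhg12-205 (4 exons) 183 and 117 (log2 -0.93, -1.28 to -0.59). Snhg12-203 (3 exons) had a log2 ratio of -0.80, and Snhg12-202, with 422 bases and as many exons as the main form, had -0.97, so length and exon number did not separate the forms. As RSEM divided the reads, the near-even total of Snhg12 was mostly the sum of 1 form higher in CAST and 4 lower, its forms with 100 or more counts.

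In Snhg11 the main form Snhg11-201 had 4333 counts in B6 against 6734 in CAST (log2 0.35, 0.29 to 0.40). Snhg11-205, annotated as a target of nonsense-mediated decay, had 146 and 77 (log2 -1.21, -1.63 to -0.80), and its share of the gene's TPM was 13.3% in B6 and 4.75% in CAST. By counts, which are not corrected for length, the share of this shorter form was 3.24% and 1.11%. The 2 retained intron forms of Snhg11 went against the general tilt, with 18 and 61 counts for Snhg11-202 and 0 and 30 for Snhg11-204.

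The starts of Gas5 and Snhg12 are shown because host genes of this kind often begin with a run of pyrimidines, the mark of messenger RNAs whose translation follows growth signals through mTOR. The first 40 bases of the main forms follow (Gas5-224 in chr1:161035163-161035759 across a splice junction, Snhg12-206 at chr4:132308678-132308717, GENCODE M21), with the longest run of C and T in the first 20 bases in capitals.
Gas5-224: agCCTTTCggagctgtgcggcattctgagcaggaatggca
Snhg12-206: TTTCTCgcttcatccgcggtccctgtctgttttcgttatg
Both runs are 6 bases long. A run of 6 or more in the first 20 bases was found in 17.4% of 14689 main transcripts and in 24 of 72 ribosomal protein transcripts, so it is not rare. The longest such run in Snhg11-201 has 2 bases, in Malat1-201 3 and in Neat1-202 2, while Miat-201 and Rptoros-201 each have one of 6. Of 85 genes on the list of terminal oligopyrimidine messenger RNAs 36 were below 0 and 49 above, with a median log2 ratio of 0.06. Rpl27 (log2 0.75) and Rps12 (log2 0.70) were highest and Rpl34 (log2 -1.54) and Rpl7a (log2 -1.48) lowest, all ribosomal proteins; the list's median turned to -0.09 by total counts and -0.26 by TPM, as did that of all genes.

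The products that these hosts exist for were not counted. Gas5 holds 10 annotated snoRNA genes, of which 9 were matched, all with 0 counts in each library. The 2 in Snhg11 had 0, and of the 5 in Snhg12 the 4 matched had 3 counts in B6 against 0 in CAST, all from Snora16a. The 8 within Snhg1 also had 0. Of 1525 snoRNA genes in the files 1479 were at 0 in both libraries, so nothing can be said of snoRNA levels. The following snoRNAs show what lies in the introns: Snord47 (chr1:161038082-161038158), Snord78 (chr1:161036984-161037049) and Snord80 (chr1:161037601-161037681) of Gas5, and Snord99 (chr4:132310691-132310764) of Snhg12, all on the plus strand. Capitals mark the first TGATG, of the C box, and the last CTGA, the D box, between which proteins such as fibrillarin assemble.
Snord47: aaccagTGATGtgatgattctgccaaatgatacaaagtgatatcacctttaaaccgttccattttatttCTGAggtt
Snord78: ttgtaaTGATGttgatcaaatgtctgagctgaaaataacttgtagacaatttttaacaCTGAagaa
Snord80: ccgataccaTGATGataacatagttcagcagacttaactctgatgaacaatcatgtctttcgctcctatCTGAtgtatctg
Snord99: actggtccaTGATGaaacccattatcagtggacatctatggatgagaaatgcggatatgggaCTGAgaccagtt
Of 459 annotated snoRNA transcripts of up to 100 bases, 74.1% have TGATG within about 20 bases of the start and CTGA within 20 bases of the end.

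Other host RNAs lay lower in CAST more often than higher. Of 9 listed noncoding hosts with 100 or more counts 7 were below 0, with a median of -0.51, close to the -0.49 of long noncoding genes. Snhg17 had 1253 counts in B6 against 534 in CAST (log2 -1.52), and Snhg6 had 369 and 216 (log2 -1.06). Snhg5 stood opposite, with 610 and 1735 (log2 1.22), and Epb41l4aos had a log2 ratio of 0.29. By annotation, 21 noncoding genes beside the members that hold a snoRNA, these 9 among them, had a median of -0.38, and 235 coding genes that hold one had a median of 0.03. Proteins that build snoRNA particles were on the other side in small steps: 17 of 19 were above 0, with a median of 0.19 and none 2-fold apart. Nop58, a core protein of box C/D particles (log2 0.66), and Nufip1, an assembly factor (log2 0.52), were highest, and Ruvbl1 (log2 -0.11) and Nop56 (log2 -0.06) lowest. By TPM that median was -0.13, above the -0.26 of all genes.

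Genes of nonsense-mediated decay, which removes spliced host RNAs, were near even. Of 16 genes 7 were below 0 and 9 above, with a median of 0.00. Eif4a3 (log2 0.48) and Magoh (log2 0.36), of the exon junction complex, were highest, and Upf1, the central helicase (log2 -0.42), and Smg1, the kinase that acts on it (log2 -0.27), lowest. The 12 RNAs used as readouts of that decay, Gas5 and Snhg12 among them, had 6 below 0 and 6 above and a median of 0.04, from Srsf6 (log2 -0.36) to Gadd45b (log2 0.60).

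Rptoros was counted in B6 only. It had 245 counts in B6, or 3.46 TPM, and 0 in CAST. The ratio has only a bound, since CAST is at 0. With a floor of 3 counts for that library, Rptoros was 99.8-fold lower there (log2 -6.64). That value takes the B6 count as it stands, without its counting error. The upper end of the counting interval of Rptoros, at log2 -6.33, is a weaker bound. Of 12156 genes with 200 or more counts in B6 only 4 were at 0 in CAST, and Rptoros is 1 of the 2 long noncoding genes among them. In the other direction 91 of 12634 genes with 200 or more counts in CAST were at 0 in B6. All reads were assigned on the reference build, which stems from B6, and the part of that in the 0 was not tested.

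Rptoros-201 (chr11:119820812-119834365, minus strand, 3 exons, 1174 bases) lies within Rptor on the other strand. Exon 1 (76 bases) and exon 2 (145 bases) touch no exon of Rptor, but 84 bases of exon 3 (953 bases) are the reverse complement of exon sequence in 6 of 12 annotated Rptor transcripts. The stretch, at chr11:119821661-119821744 (GENCODE M21, minus strand), is given because reads from it fit both genes where the strand is unknown, and the sources used here do not give the strand setting.
Rptoros-201: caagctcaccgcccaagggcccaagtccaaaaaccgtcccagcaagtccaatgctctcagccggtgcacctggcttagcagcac
Rptor encodes the subunit of mTOR complex 1 that binds its substrates. It had 3919 counts in B6 against 3582 in CAST (log2 -0.42, -0.48 to -0.35), a much smaller difference than that of Rptoros. In the complex's other genes Deptor (log2 -0.15), Mtor (log2 -0.03) and Akt1s1 (log2 0.09) were near even, and 3 of 4 were below 0. The nearest coding genes outside Rptor were Nptx1, a neuronal pentraxin, with 3233 and 9714 counts (log2 1.30), and Chmp6, of the ESCRT machinery, with 1124 and 1629 (log2 0.25).

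The surroundings of the other members were closer to even than the members with large ratios. Zbtb37, which overlaps Gas5 on the other strand, had 337 and 357 counts (log2 -0.21). If the reads carry no strand, those in the overlap cannot be told apart. Trnau1ap beside Snhg12 had 1064 and 1541 counts (log2 0.25), and Ralgapb beside Snhg11 had 7361 and 8864 (log2 -0.02). Gm26953, antisense to Miat, and the short noncoding entries annotated on the same strand inside Miat and Neat1 had 0 counts in each library. Reads from inside these entries can also fit the host RNA, so that 0 says nothing of their own level. Beside the unmatched Snhg1, Slc3a2, the heavy chain of amino acid transporters, had 13399 and 17944 counts (log2 0.13), and Wdr74 had 1050 and 1737 (log2 0.44). No gene elsewhere in the genome held a near-identical copy of a member's transcript, at 95% identity over 200 or more bases.

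**Figure D5:**
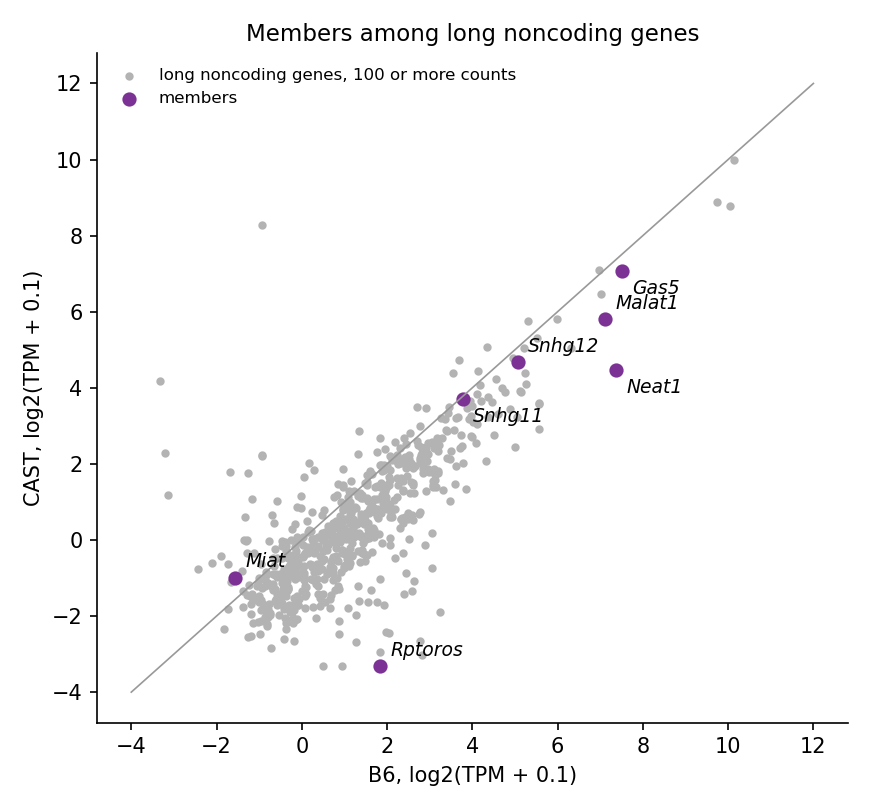
Grey points are the 673 long noncoding genes with 100 or more counts, by log2(TPM + 0.1) in B6 and in CAST, the purple points are the members, and the line marks equal TPM. Among genes with a TPM of 10 or more in B6, Neat1 lies farthest below the line. Rptoros sits at the bottom edge with CAST at 0, and Gas5, Snhg11 and Snhg12 lie close to the line.

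The genes nearest to each member in level, by distance in log2(TPM + 1) over the 2 libraries, were mostly coding. With only 2 libraries many genes have a like pair of values. Herpud1 was nearest to Gas5 (181 and 135 TPM), Vcp to Malat1 (143 and 59.0), Poldip3 to Snhg12 (33.7 and 25.7), Smad2 to Snhg11 (13.5 and 12.9) and Grhl3 to Miat (0.239 and 0.397). No gene was as close to Neat1: the nearest, the pseudogene Rpl21-ps15, stood at 241 and 23.2 TPM, at a distance of 0.54. Nearest to Rptoros was Chn1os3, another antisense RNA, with 189 counts in B6 against 8 in CAST.

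Among other long noncoding RNAs on a list drawn from general knowledge, 14 had 100 or more counts, 10 of them below 0, with a median of -0.38. Meg3, an imprinted RNA abundant in islets, had 158267 counts in B6 against 87491 in CAST (log2 -1.14). Trp53cor1, a target of p53, had 300 and 87 (log2 -2.07), the lowest of the list and still above Neat1. Pvt1 (log2 0.87) and Rn7sk, which holds back a transcription elongation factor (log2 0.55), were highest.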

How the data were processed

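Expected counts were obtained by the authors with RSEM on GRCm38, as the submitters' processing notes list; the sources used here do not give versions, annotation or strand setting. The second deposited value of each transcript sums to 1 per library and was read as a fraction of transcripts, by the authors' RSEM run; multiplied by 1000000 it is TPM. Count divided by fraction followed transcript length (Spearman 0.971 over 22755 transcripts in B6). Transcript rows were summed per Ensembl gene and rounded; 37607 of 38924 IDs matched GENCODE M21. Counts were scaled with TMM (edgeR 4.0.16; R 4.3.3) and 0.5 was added; genes needed 100 counts over both libraries. Intervals are exact Clopper-Pearson (95%) on the CAST share; they and the floor of 3 counts cover counting error only. Members and lists were chosen with earlier results of these data known. Named genes are the members, nearest coding and overlapping genes, the nearest in level and the 2 highest and lowest of each list; Gm27702 and the snoRNAs shown were chosen for sequence, and some genes under this rule are not reported here. Copies were sought with minimap2 2.31 (95% identity, 200 bases, 50% of the shorter). Ratios were checked on simulated data.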

Additional observations from a re-analysis of the deposited data

How the results depend on the processing

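The count of members at least 2-fold higher in B6 was 3 under every alternative run: a 1.5-fold threshold, DESeq2 1.42.0 size factors, total counts, TMM without hormone and acinar genes, TPM with a pseudocount of 1 or 0.1, the leading transcript alone, copies summed and CAST thinned to the B6 total. A 1.5-fold threshold can only raise the count higher in B6, and no copy elsewhere was found to sum. Total counts and TPM shift the median of all genes toward B6, which favours that count. Measured from that median, Malat1 fell just short of 2-fold by TPM with a pseudocount of 0.1 (log2 -0.997). The count higher in CAST was 1, but 0 by total counts and 0 by TPM with either pseudocount, since Miat then fell short. Over the alternatives the log2 ratio spanned -2.90 to -2.58 for Neat1, -1.31 to -1.04 for Malat1, 0.18 to 1.16 for Miat and -0.44 to -0.04 for Gas5. It crossed 0 for Snhg11 (-0.08 to 0.35) and for Snhg12 (-0.39 to 0.27, the last from its leading transcript alone). Total counts moved the median of all genes by -0.16 and TPM by -0.28 or -0.34. At 20 counts the median of other long noncoding RNAs was -0.07. The cause was not tested. By counts in place of TPM, the leading transcript held 83.1% of Neat1 in B6 and 27.4% of Gas5. No paired analysis was possible because each strain has 1 library.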
